A study of Mus musculus with 24 samples.

Results

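The transcription machinery examined here comprised the subunits of RNA polymerases I, II and III and the general transcription factors, in livers of mice that express the active domain of SREBP-1a with or without its MAPK phosphorylation sites. Members were all genes with a probe set of a single symbol that names an RNA polymerase I, II or III subunit (Polr1, Polr2 and Polr3 genes), a Gtf2 gene, a numbered TATA-binding protein associated factor (Taf gene), or Tbp, Ccnh, Cdk7, Mnat1, Ercc2 or Ercc3. This rule found 71 genes with 87 probe sets, of 19938 genes with a single-symbol probe set and 35556 probe sets in all. Each gene was read by the probe set with the highest mean over the 24 arrays. The 2 probe sets that carry a member's symbol together with another gene's were left out.

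Liver RNA came from 24 male mice aged 24 weeks on the C57Bl6 background, 8 per genotype, with 1 Affymetrix Mouse Gene 1.0 ST array per mouse. The alb-SREBP-1a∆P mice carry the N-terminal active domain of human SREBP-1a without its MAPK phosphorylation sites. The alb-SREBP-1a mice carry the same domain with these sites intact, and C57Bl6 mice are the wild type. In both lines the albumin promoter drives the transgene, a promoter that is active in hepatocytes. All 3 genotypes had free access to chow. Levels are given as deposited, as log2 signals, and a change is a difference of mean log2 signals with its standard error. A gene was called higher or lower where limma's p, adjusted over all 35556 probe sets by the method of Benjamini and Hochberg, was under 0.05. The comparisons share arrays, since each genotype takes part in 2 of them.

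RNA polymerase II makes messenger RNA, RNA polymerase I the large ribosomal RNA, and RNA polymerase III transfer RNA and other small RNAs. A set of small subunits is common to all these enzymes. At a promoter, TFIID, made of TBP and the TAF proteins, recognises core elements, TFIIA and TFIIB steady and bridge it to the polymerase, TFIIF escorts the enzyme, and TFIIE brings in TFIIH, whose helicases open the DNA and whose kinase phosphorylates the tail of the largest subunit. SREBP-1a is a basic helix-loop-helix leucine zipper factor of lipid synthesis that can bind both sterol regulatory elements and E-boxes.

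The mean level of the 71 genes on an array was 6.59 to 6.81 in alb-SREBP-1a∆P, 6.83 to 7.07 in alb-SREBP-1a and 6.87 to 7.07 in C57Bl6. Every alb-SREBP-1a∆P array thus lay below every array of both other genotypes. On the same arrays the median over all probe sets ran the other way, at 5.69 to 5.81 in alb-SREBP-1a∆P, 5.54 to 5.65 in alb-SREBP-1a and 5.55 to 5.65 in C57Bl6. The log2 values of an array spread less widely in alb-SREBP-1a∆P, with standard deviations of 2.02 to 2.09, against those in alb-SREBP-1a (2.14 to 2.23) and C57Bl6 (2.18 to 2.25). The part of this narrower spread in the results below was not tested beyond the other scalings given with them. Array 4 of alb-SREBP-1a∆P stood apart most from its own group, with a median correlation of 0.953 to the other arrays of its genotype.

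In alb-SREBP-1a∆P liver 38 of the 71 genes were lower than in wild type liver. Both TFIIE subunits, cyclin H of TFIIH (Ccnh), the second largest polymerase II subunit Polr2b and the TFIID scaffold Taf1 fell, while the small common subunit Polr2l rose. Against C57Bl6, 2 genes were higher, 38 lower and 31 not called, with a median change of −0.34. Some of the 38 have another probe set that was not called lower, as described below. Over all probe sets 27% were higher and 20.2% lower in this comparison, and with 1 probe set per gene 25.2% were higher and 25.9% lower (median change 0.06). Fewer RNA molecules per cell and fewer cells that make them cannot be told apart in whole liver. All 8 alb-SREBP-1a∆P arrays lay below all 8 C57Bl6 arrays for 18 of the 71 genes (25.4%) and above them for 1 (1.41%), against 8.92% and 3.48% of all genes.

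Against alb-SREBP-1a the picture was similar, with 2 genes higher, 43 lower and 26 not called and a median change of −0.28. Here 22.8% of all probe sets were higher and 21.4% lower, and with 1 probe set per gene 22.2% were higher and 28.4% lower (median change 0.03). The arrays of the lines did not overlap for 15 genes, all lower in alb-SREBP-1a∆P (21.1%, against 5.86% of all genes lower and 1.72% higher). The 2 genes called higher were Gtf2a1l, a TFIIA subunit gene known from testis, and the SL1 subunit Taf1c. Both calls were close to the threshold (adjusted p = 0.0363 and 0.0467 from limma) and are taken up below.

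Between alb-SREBP-1a and C57Bl6 few genes of the machinery were called. The call was higher for 6 genes, lower for 5 and absent for 60, with a median change of 0.00, beside 6.77% of all probe sets higher and 3.98% lower and, with 1 probe set per gene, 6.26% and 4.4%. Arrays did not overlap for Polr2l and Polr2a, which rose, and for Polr1c, which fell. These are 2.82% and 1.41% of the 71 genes, against 1.76% and 1.16% of all genes.

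**Figure D1:**
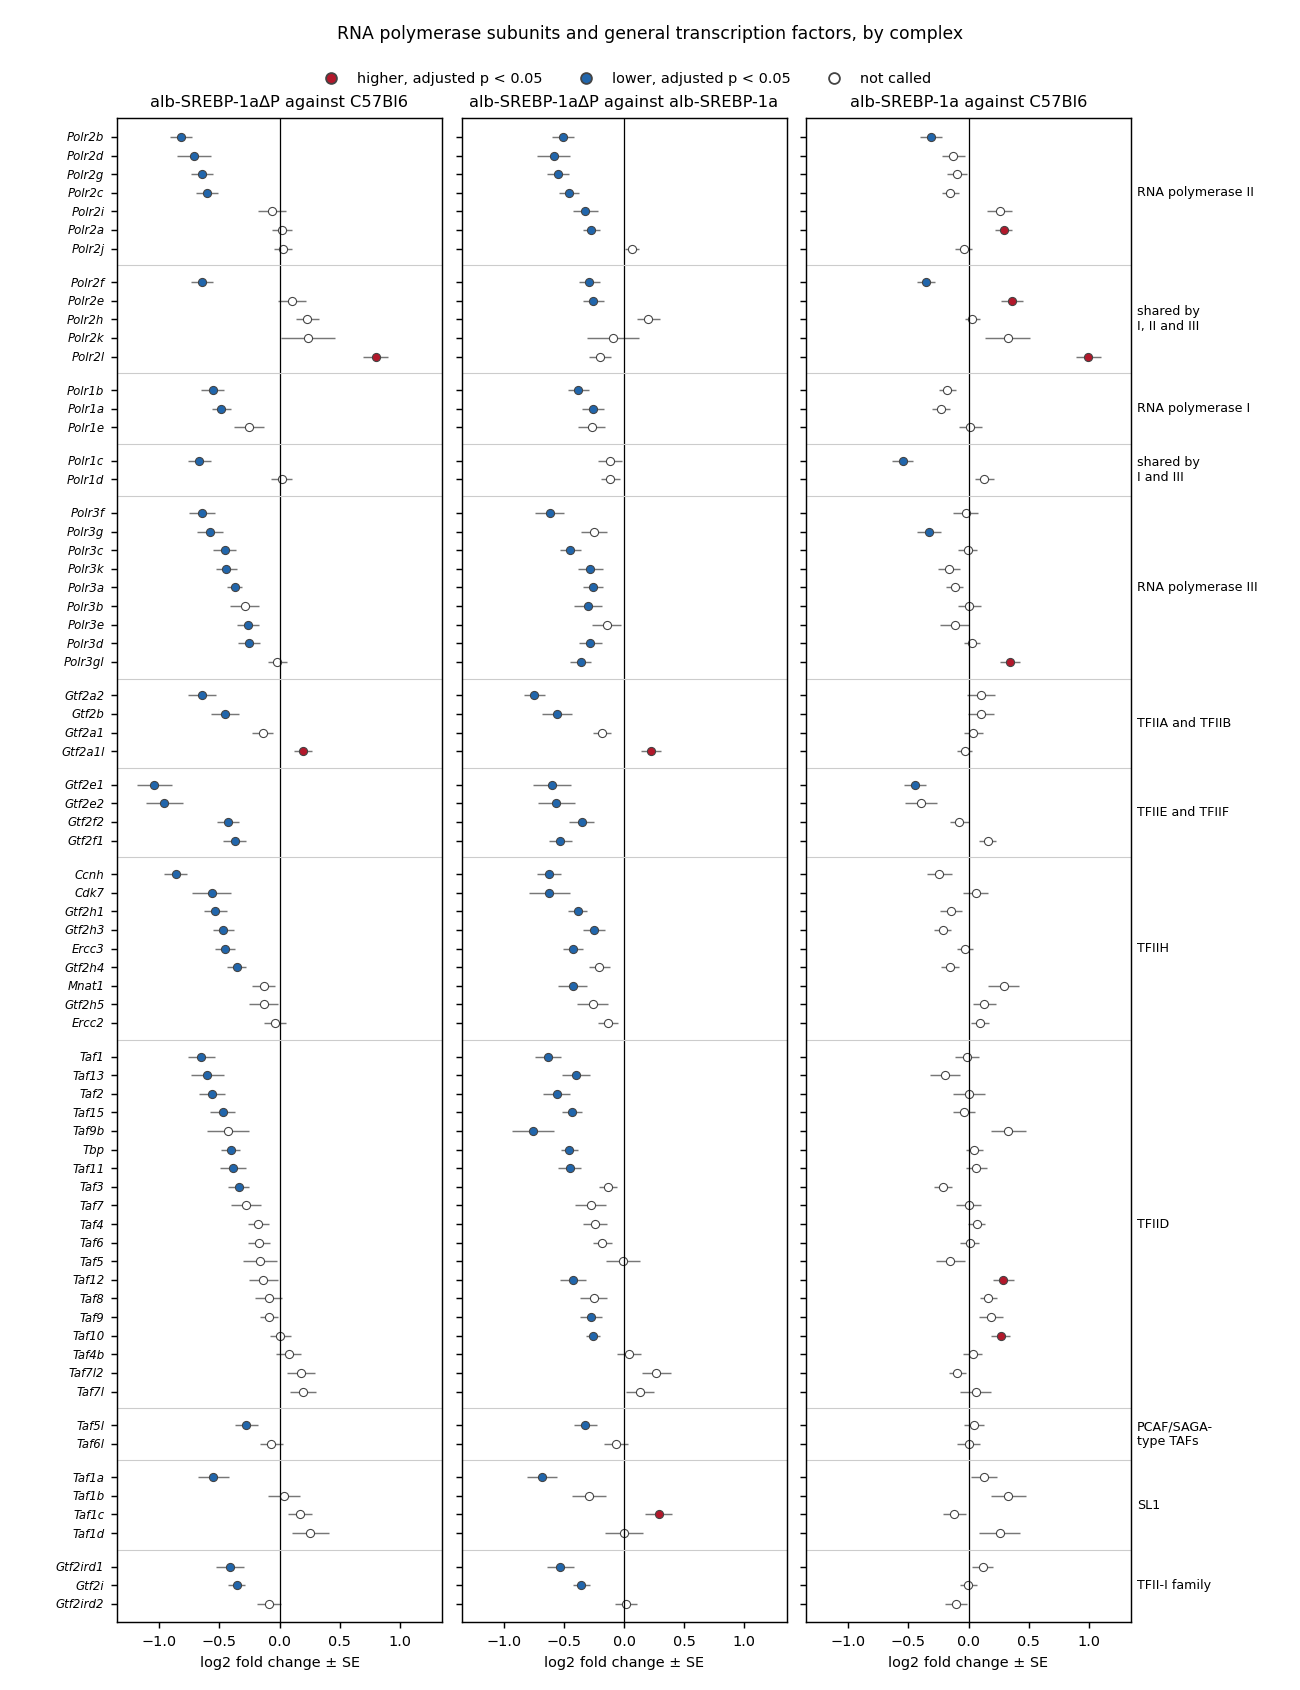
Log2 fold change ± standard error of each of the 71 genes (8 against 8 arrays per comparison), grouped by complex; filled points are called at an adjusted p under 0.05. Points lie mostly left of 0 in both alb-SREBP-1a∆P comparisons (38 and 43 genes lower) and around 0 in alb-SREBP-1a against C57Bl6 (5 lower, 6 higher), where Polr2l stands alone at the right.

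How far these counts stand from the background depended on brightness. When the 19938 genes were split into 10 groups of equal size by mean level, the median change between alb-SREBP-1a∆P and C57Bl6 was 0.41 in the dimmest group and −0.32 in the ninth. Members were mainly of middle brightness: 14 lay in groups 1 to 5 (mean level up to 5.92), 42 in groups 6 to 8 (up to 7.62) and 15 in groups 9 and 10. In groups 6 to 8, 30 of 42 members (71.4%) were lower in alb-SREBP-1a∆P relative to C57Bl6, against 41.5% of all genes of these groups. In groups 1 to 5 it was 2 of 14 (14.3%, against 3.62%). In the brightest groups the order turned, with 6 of 15 members lower (40%) against 58.3% of all genes. The difference between members and all genes of a band was not tested. Against alb-SREBP-1a the shares in the same bands were 28.6%, 73.8% and 53.3% of members, beside 3.52%, 45.7% and 64.5% of all genes.

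**Figure D2:**
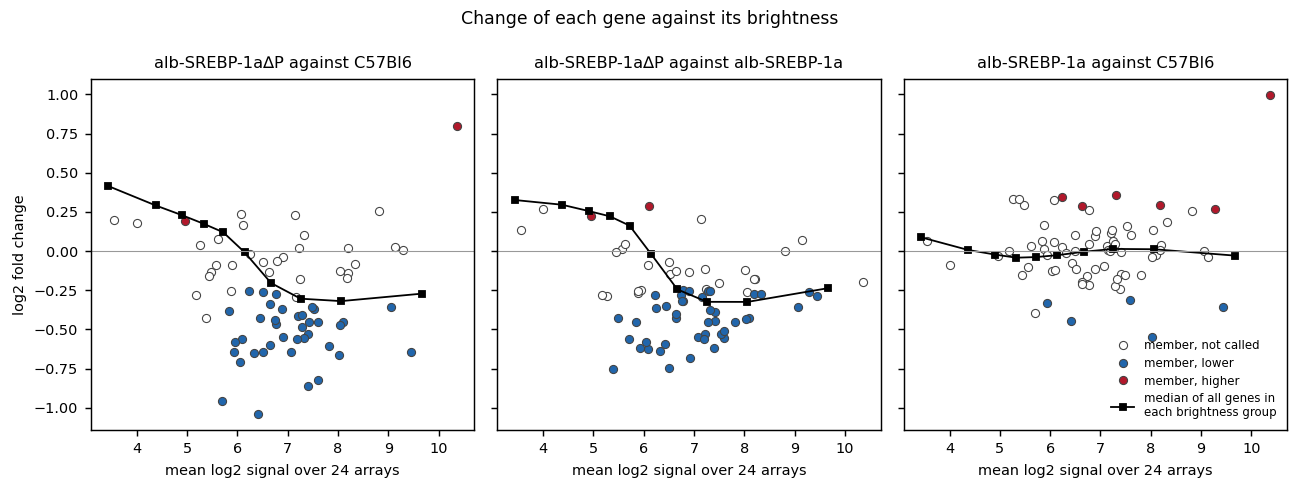
Log2 fold change of each gene against its mean log2 level over the 24 arrays; circles are the 71 genes, coloured by call, and black squares join the median change of all genes in 10 brightness groups. In both alb-SREBP-1a∆P comparisons the black line falls as brightness grows (against C57Bl6 it is 0.41 in the dimmest group and −0.32 in the ninth), and most members of middle brightness lie below it.

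The direction of the whole set was kept under other scalings of the arrays, though its size was not. Against C57Bl6 the median change of the members was −0.30 after quantile normalization (3 higher, 38 lower), −0.50 with arrays centred on their medians (1 and 48) and −0.20 after cyclic loess (7 and 29). Medians over all probe sets under these scalings were −0.03, −0.05 and −0.00, against 0.11 as deposited. The share of all genes called moved as well: 23%, 36.1% and 17.9% were lower and 9.39%, 10.3% and 13.3% higher under these scalings in turn, beside 25.9% and 25.2% as deposited. Under all 4 scalings 26 genes were lower and only Polr2l higher. The 26 include Polr2c, Taf13 and Cdk7, whose other probe sets were not called lower, as described below. Against alb-SREBP-1a the counts of genes lower were 34, 58 and 24 in the same order, with 2, 0 and 2 higher. Under all 4, 20 genes were lower, Cdk7 among them. Of all genes, 17.2%, 41% and 12.3% were lower there and 6.22%, 7.73% and 8.22% higher, beside 28.4% and 22.2% as deposited. The lower calls of Ercc3, Gtf2b, Gtf2i and Taf5l were not kept under all 4 scalings in either comparison. Nor were those of Tbp, Gtf2f1 and Gtf2ird1 against C57Bl6, or of Polr1a, Polr1b, Polr2f and Gtf2f2 against alb-SREBP-1a. In alb-SREBP-1a against C57Bl6, 54.5% of the calls were higher as deposited, 30.8% after quantile normalization, 66.7% with centring and 45.5% after cyclic loess. There Polr2a, Polr2e, Polr2l and Polr3gl were higher and Gtf2e1, Polr1c and Polr2f lower under each of them.

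**Figure D3:**
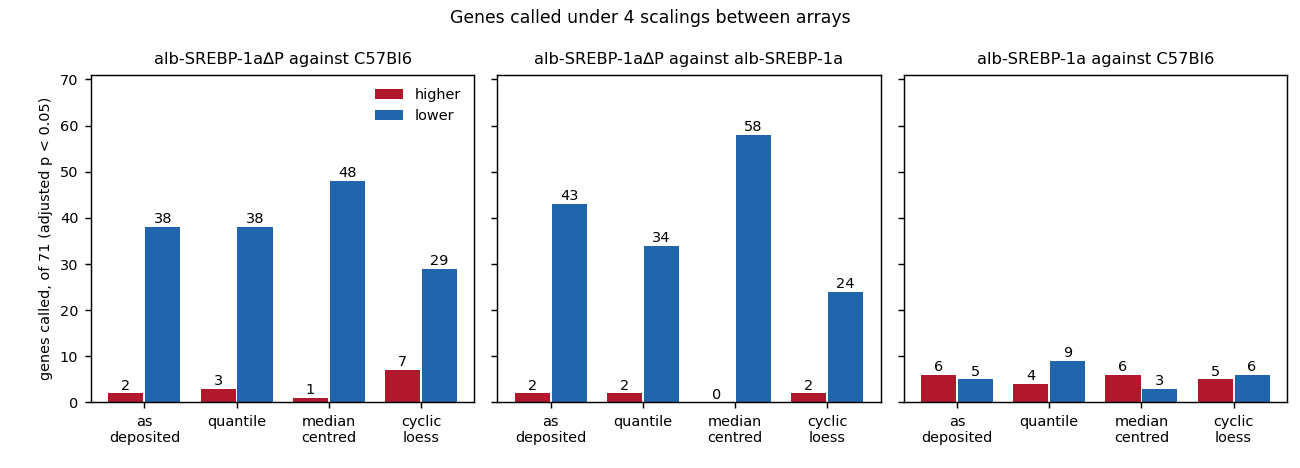
Number of the 71 genes called higher or lower in each comparison under 4 scalings between arrays (bars start at 0). Lower calls dominate in both alb-SREBP-1a∆P comparisons under each scaling, between 29 and 48 against C57Bl6 and between 24 and 58 against alb-SREBP-1a, whereas alb-SREBP-1a against C57Bl6 gives 3 to 9 lower and 4 to 6 higher.

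The promoters of 5 genes are shown because these genes carry the main patterns: Gtf2e1 with the largest fall, Polr2b called lower in every comparison, Gtf2a2 lower in alb-SREBP-1a∆P relative to both other genotypes, Polr2l with the largest rise and Polr3gl, highest in alb-SREBP-1a. Each run holds the 250 bases before the start site from RefSeq (GRCm38.p6), written 5′ to 3′ in the direction of the gene, with capitals for matches to the motifs named below. They lie at chr16:37539790-37540039 (minus strand, Gtf2e1), chr5:77310234-77310483 (plus strand, Polr2b), chr9:70012298-70012547 (plus strand, Gtf2a2), chr7:141475154-141475403 (minus strand, Polr2l) and chr3:96594182-96594431 (minus strand, Polr3gl).
Gtf2e1: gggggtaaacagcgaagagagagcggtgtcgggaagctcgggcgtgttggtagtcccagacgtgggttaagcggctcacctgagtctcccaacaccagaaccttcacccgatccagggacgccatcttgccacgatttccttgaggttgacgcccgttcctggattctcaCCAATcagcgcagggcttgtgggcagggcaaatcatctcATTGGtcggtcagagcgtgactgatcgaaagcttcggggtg
Polr2b: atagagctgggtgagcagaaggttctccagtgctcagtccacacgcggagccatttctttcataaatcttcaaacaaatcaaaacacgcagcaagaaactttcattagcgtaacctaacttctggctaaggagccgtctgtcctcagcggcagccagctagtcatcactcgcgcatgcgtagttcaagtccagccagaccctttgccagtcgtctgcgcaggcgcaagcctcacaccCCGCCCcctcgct
Gtf2a2: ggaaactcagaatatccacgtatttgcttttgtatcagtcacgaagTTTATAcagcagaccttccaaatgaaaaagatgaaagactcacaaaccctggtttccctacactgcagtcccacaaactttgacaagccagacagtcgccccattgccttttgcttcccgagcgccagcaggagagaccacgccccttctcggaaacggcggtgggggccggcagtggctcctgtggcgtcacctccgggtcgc
Polr2l: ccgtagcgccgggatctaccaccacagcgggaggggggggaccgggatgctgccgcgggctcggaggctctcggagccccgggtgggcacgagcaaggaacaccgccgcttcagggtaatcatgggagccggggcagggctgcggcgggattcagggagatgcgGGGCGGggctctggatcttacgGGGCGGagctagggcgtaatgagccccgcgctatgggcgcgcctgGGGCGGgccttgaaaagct
Polr3gl: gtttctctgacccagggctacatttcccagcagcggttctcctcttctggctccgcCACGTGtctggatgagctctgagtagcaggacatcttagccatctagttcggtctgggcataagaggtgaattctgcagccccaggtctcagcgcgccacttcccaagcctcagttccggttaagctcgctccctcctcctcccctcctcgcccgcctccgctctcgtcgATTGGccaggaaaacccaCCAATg
The Gtf2e1 run holds 2 CCAAT boxes, that of Polr2b 1 GC box, that of Polr2l 3 GC boxes, and that of Polr3gl 2 CCAAT boxes and 1 E-box. That of Gtf2a2 holds 1 match to the TATA box letters, on the opposite strand, 204 to 199 bases before the start site. Motifs were counted as letter matches at any position in the 250 bases, so a match need not be a working element. Promoters were matched for 60 of the 71 genes (70 promoters) and searched on both strands for the TATA box (TATAAA), the CCAAT box (CCAAT), the GC box (GGGCGG), the E-box (CACGTG) and the sterol regulatory element of the LDL receptor promoter. None of these motifs contains another. The GC box was present in 57.1% of the members' promoters, against 32.7% of all 32851 promoters of the same length, and the E-box in 20%, against 6.02%. TATA boxes (12.9%, against 12.4%) and CCAAT boxes (30%, against 33.8%) were about as frequent as elsewhere. The sterol regulatory element was in 0 of the 70 and in 0.0731% of all. The promoters compared were not matched for base composition or for the level of their genes, and the differences were not tested. Of the 13 member genes with an E-box, 4 were lower in alb-SREBP-1a∆P relative to C57Bl6 and 7 lower relative to alb-SREBP-1a, and 2 were higher in alb-SREBP-1a than in C57Bl6. Among the 47 without it, these counts were 26, 28 and 4.

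The enzyme RNA polymerase II did not move as a unit. Of its 7 specific subunits, 4 were lower in alb-SREBP-1a∆P relative to C57Bl6 (median change −0.60) and 6 lower relative to alb-SREBP-1a (median −0.45). These are 57.1% and 85.7% of the group, beside 25.9% and 28.4% of all genes. In brightness group 8, where the median level of these subunits lies, 57% and 65.8% of all genes were lower. The share against C57Bl6 was thus that of genes of like brightness, and the differences were not tested. Both counts include Polr2c, whose probe sets disagreed, as described below. Polr2b, the second largest subunit, which forms the active cleft together with the largest, had a lowest, median and highest level of 6.81, 7.20 and 7.34 in alb-SREBP-1a∆P, 7.41, 7.68 and 7.90 in alb-SREBP-1a and 7.72, 7.97 and 8.29 in C57Bl6. All alb-SREBP-1a∆P arrays lay below all other arrays. It changed by −0.82 ± 0.09 against C57Bl6 (adjusted p = 4.15e-06, limma) and by −0.51 ± 0.09 against alb-SREBP-1a (adjusted p = 0.000578), and alb-SREBP-1a lay −0.31 ± 0.09 from C57Bl6 (adjusted p = 0.0339). This last call was lost in 9 of 16 fits that each left out 1 array (adjusted p up to 0.0635) and with arrays centred on their median (adjusted p = 0.0765).

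Polr2d and Polr2g, which form the stalk of the enzyme, fell in alb-SREBP-1a∆P as well. Polr2g ranged from 6.35 over a median of 6.71 to 6.86 in alb-SREBP-1a∆P, from 6.87 over 7.26 to 7.34 in alb-SREBP-1a and from 7.05 over 7.31 to 7.54 in C57Bl6, so that alb-SREBP-1a∆P overlapped with neither. Its change was −0.64 ± 0.09 against C57Bl6 and −0.55 ± 0.09 against alb-SREBP-1a. For Polr2d these changes were −0.71 ± 0.14 and −0.58 ± 0.14. Array by array Polr2d was more scattered, with 6 of 8 alb-SREBP-1a∆P arrays below all arrays of either other genotype.

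The largest subunit, Polr2a, whose tail carries the phosphorylation marks of the transcription cycle, behaved differently. Its lowest, median and highest level was 7.85, 8.14 and 8.24 in alb-SREBP-1a∆P, 8.31, 8.37 and 8.49 in alb-SREBP-1a and 7.75, 8.16 and 8.19 in C57Bl6. The alb-SREBP-1a arrays lay above all others. Polr2a was thus higher in alb-SREBP-1a than in C57Bl6 (0.29 ± 0.07, adjusted p = 0.0118), and alb-SREBP-1a∆P differed from C57Bl6 by 0.02 ± 0.08 (adjusted p = 0.848). The difference of −0.27 ± 0.07 between the lines (adjusted p = 0.00555) depended on the scaling, since it was −0.06 after quantile normalization and 0.01 after cyclic loess. Polr2j, an assembly subunit, changed by 0.03 ± 0.08 in alb-SREBP-1a∆P against C57Bl6 and was not called in any comparison.

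Among the 5 subunits common to all polymerases, Polr2l and Polr2f moved in opposite directions. Polr2l ranged from 10.30 to 10.86 in alb-SREBP-1a∆P (median 10.54) and from 10.46 to 10.98 in alb-SREBP-1a (median 10.75), against 9.38 to 10.03 in C57Bl6 (median 9.79). No transgenic array of either line reached down to the C57Bl6 range. Polr2l rose by 0.80 ± 0.10 in alb-SREBP-1a∆P (adjusted p = 1.2e-05) and by 1.00 ± 0.10 in alb-SREBP-1a (adjusted p = 1.3e-05), 1.74-fold and 1.99-fold. The lines differed by −0.20 ± 0.09, which was not called (adjusted p = 0.0883).

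Polr2f ranged from 8.91 to 9.48 in alb-SREBP-1a∆P (median 9.10), from 9.17 to 9.59 in alb-SREBP-1a (median 9.43) and from 9.53 to 9.99 in C57Bl6 (median 9.75). It was called lower in each comparison, with changes of −0.64 ± 0.09 in alb-SREBP-1a∆P and −0.36 ± 0.08 in alb-SREBP-1a, each against C57Bl6, and −0.29 ± 0.09 between the lines. Polr2e rose in alb-SREBP-1a (0.36 ± 0.09, adjusted p = 0.0196) but alb-SREBP-1a∆P differed from C57Bl6 by 0.10 ± 0.11 (adjusted p = 0.468). Polr2h and Polr2k were not called in any comparison, and Polr2k had the widest spread of all members within each genotype (SD 0.54, 0.38 and 0.43 in alb-SREBP-1a∆P, alb-SREBP-1a and C57Bl6).

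**Figure D4:**
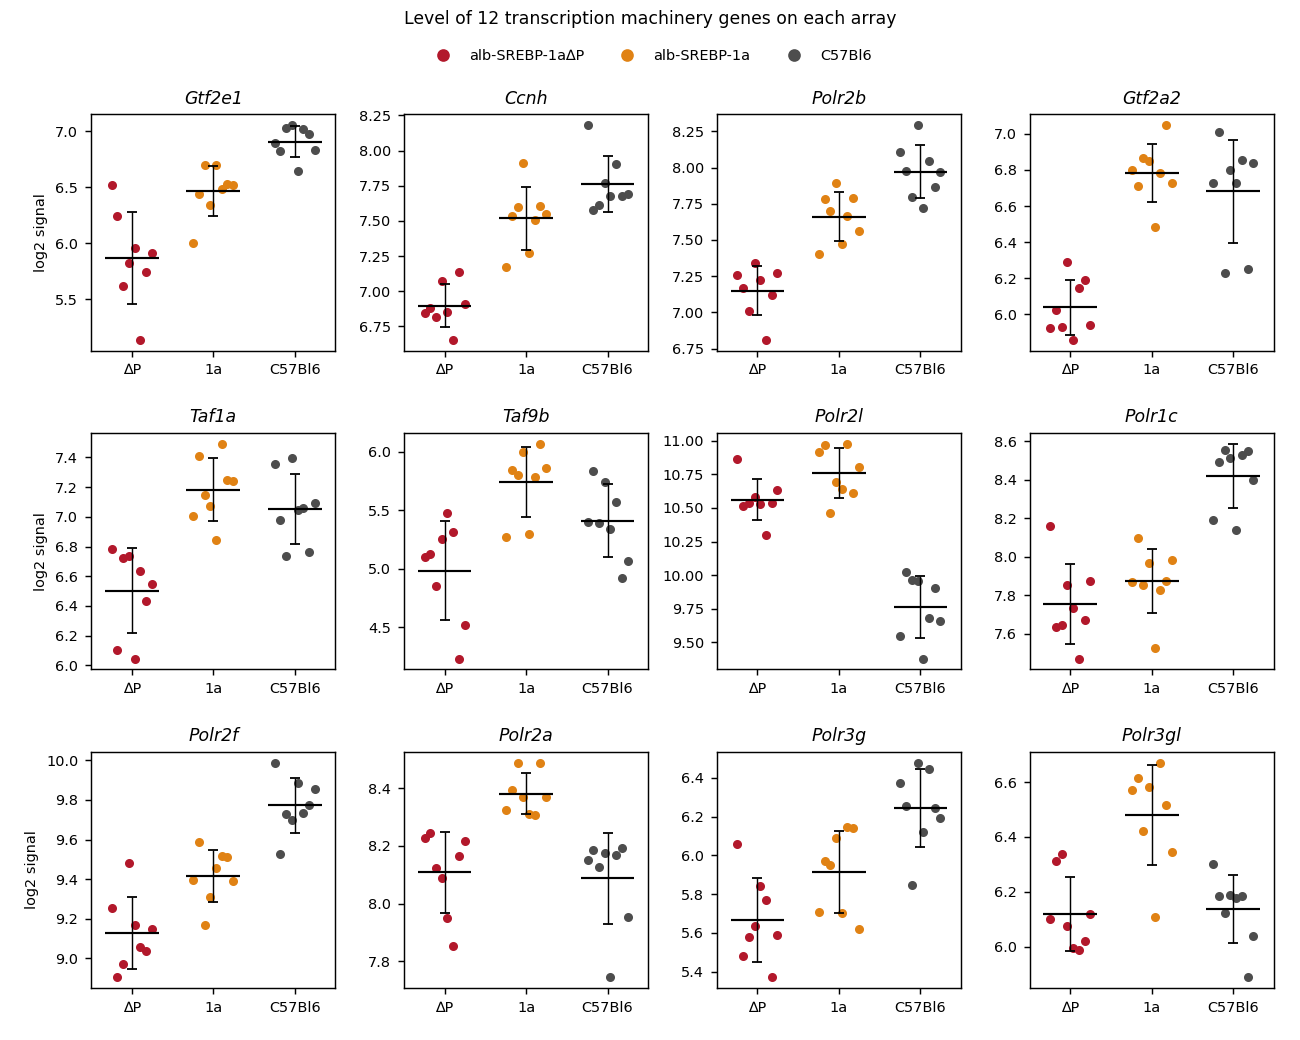
Log2 level of 12 genes on each array (points), with the mean and SD of 8 arrays per genotype as bar and whiskers; 1a is short for alb-SREBP-1a and ∆P for the line without the phosphorylation sites. The means of Gtf2e1, Ccnh, Polr2b and Polr2f are lowest in alb-SREBP-1a∆P and highest in C57Bl6, Gtf2a2, Taf1a and Taf9b are lowest in alb-SREBP-1a∆P, Polr2l is high in both lines, and Polr2a and Polr3gl have their highest mean in alb-SREBP-1a.

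The genes of TFIIE showed the largest falls of all members against C57Bl6. Gtf2e1, the large TFIIE subunit, ranged from 5.14 to 6.52 in alb-SREBP-1a∆P (median 5.87), from 6.001 to 6.70 in alb-SREBP-1a (median 6.51) and from 6.64 to 7.05 in C57Bl6 (median 6.93). The alb-SREBP-1a∆P arrays stayed below all C57Bl6 arrays and 6 of 8 below all alb-SREBP-1a arrays. The change was −1.04 ± 0.15 in alb-SREBP-1a∆P (adjusted p = 3.42e-05) and −0.44 ± 0.09 in alb-SREBP-1a (adjusted p = 0.0052), each against C57Bl6, and −0.59 ± 0.16 between the lines (adjusted p = 0.0071). Gtf2e2, the small subunit, followed at −0.96 ± 0.15 and, between the lines, at −0.56 ± 0.16. In alb-SREBP-1a against C57Bl6 its change of −0.39 ± 0.13 was not called (adjusted p = 0.0655). The TFIIF subunits Gtf2f1 and Gtf2f2 fell in alb-SREBP-1a∆P against C57Bl6 (−0.37 ± 0.10 and −0.43 ± 0.09) and against alb-SREBP-1a (−0.53 ± 0.09 and −0.35 ± 0.10). All 4 genes of TFIIE and TFIIF were thus lower in both comparisons, beside 25.9% and 28.4% of all genes. In brightness group 7, where their median level lies, 44.5% and 48.4% of all genes were lower.

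Of the 9 TFIIH genes, 6 fell in alb-SREBP-1a∆P against C57Bl6 (median change −0.45) and 6 against alb-SREBP-1a (median −0.39). This is 66.7% of the group in each comparison, beside 25.9% and 28.4% of all genes. In brightness group 8, where the median level of the TFIIH genes lies, 57% and 65.8% of all genes were lower. The share against alb-SREBP-1a was thus near that of genes of like brightness, and the differences were not tested. Both counts include Cdk7, whose probe sets differed, as described below. Between alb-SREBP-1a and C57Bl6, 0 TFIIH genes were called by limma, where 1 was higher and 2 lower at an unadjusted p under 0.05. Ccnh, the cyclin of the TFIIH kinase, ranged from 6.65 to 7.14 in alb-SREBP-1a∆P (median 6.87), from 7.17 to 7.91 in alb-SREBP-1a (median 7.54) and from 7.58 to 8.18 in C57Bl6 (median 7.68). No alb-SREBP-1a∆P array reached the others. Ccnh changed by −0.86 ± 0.09 against C57Bl6, the smallest adjusted p of all members in any comparison (2.39e-06), and by −0.62 ± 0.10 against alb-SREBP-1a. Its partner kinase Cdk7 changed by −0.56 ± 0.16 and −0.62 ± 0.17 in the same comparisons. The third subunit of this kinase, the assembly factor Mnat1, was lower than in alb-SREBP-1a (−0.43 ± 0.12) but differed from C57Bl6 by −0.13 ± 0.09 (adjusted p = 0.247).

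Of the TFIIH helicases, Ercc3 was called and Ercc2 was not. Ercc3, needed for promoter opening, was lower in alb-SREBP-1a∆P relative to C57Bl6 (−0.45 ± 0.08) and to alb-SREBP-1a (−0.42 ± 0.08), with no overlap of arrays in either case. Neither of these calls was kept under all 4 scalings. Ercc2, the helicase of nucleotide excision repair, changed by −0.04 ± 0.09 and −0.13 ± 0.08 and was not called. Gtf2h1 and Gtf2h3, structural subunits of the core, changed by −0.53 ± 0.10 and −0.47 ± 0.09 against C57Bl6.

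TFIIA and TFIIB divided between the subunits. Gtf2a2, the small TFIIA subunit, ranged from 5.86 to 6.29 in alb-SREBP-1a∆P (median 5.98), from 6.48 to 7.05 in alb-SREBP-1a (median 6.79) and from 6.23 to 7.01 in C57Bl6 (median 6.76). The alb-SREBP-1a∆P arrays were separate from those of alb-SREBP-1a, and 7 of 8 lay below all C57Bl6 arrays. Gtf2a2 changed by −0.75 ± 0.09 against alb-SREBP-1a (adjusted p = 8.64e-05) and by −0.64 ± 0.11 against C57Bl6, whereas alb-SREBP-1a differed from C57Bl6 by 0.10 ± 0.11 (adjusted p = 0.63). The direction given here follows the sample labels of the deposited arrays, and the sign the study prints for this gene, read by its legend, runs the other way. The study's text and legend differ, however. Its text names Ppard as upregulated in C57Bl6, while its table prints a positive sign for Ppard against both lines. Read as for Ppard, the positive sign of Gtf2a2 has the direction given here. The study lists Gtf2a2 among its leading transcripts from these arrays, so the choice to describe it is not independent of its values. Gtf2b, the TFIIB gene, changed by −0.45 ± 0.11 against C57Bl6 and by −0.56 ± 0.12 against alb-SREBP-1a. Gtf2a1, the gene of the large TFIIA subunit precursor, was not called in any comparison (−0.14 ± 0.08 in alb-SREBP-1a∆P against C57Bl6).

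TFIID was the largest group. Of its 19 genes, 7 were lower in alb-SREBP-1a∆P relative to C57Bl6 (median change −0.18) and 10 lower relative to alb-SREBP-1a (median −0.27), and the other genes were not called. These are 36.8% and 52.6% of the group, beside 25.9% and 28.4% of all genes and 44.5% and 48.4% of the genes in brightness group 7, where the median level of the TFIID genes lies. The TFIID counts were thus near those of genes of like brightness, and the difference was not tested. Both counts include Taf13, whose probe sets disagreed, as described below. The count against alb-SREBP-1a also includes Taf10, called on its brightest probe set only. It includes Taf9 as well, whose single probe set stands among genes of another chromosome. Taf1, the scaffold of TFIID, ranged from 5.55 to 6.22 in alb-SREBP-1a∆P (median 5.88), from 6.11 to 6.78 in alb-SREBP-1a (median 6.60) and from 6.30 to 6.85 in C57Bl6 (median 6.53). It separated alb-SREBP-1a∆P from C57Bl6 on every array, and 7 of 8 arrays lay below all of alb-SREBP-1a. Taf1 changed by −0.65 ± 0.11 and −0.63 ± 0.11 in these comparisons. Tbp, the TATA-binding protein used by all polymerases, changed by −0.41 ± 0.08 and −0.45 ± 0.07, and Taf2, which contacts initiator elements, by −0.56 ± 0.11 in each.

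Some TFIID members differed between the lines without a call against C57Bl6. Taf9b ranged from 4.24 to 5.48 in alb-SREBP-1a∆P (median 5.11), from 5.28 to 6.07 in alb-SREBP-1a (median 5.82) and from 4.92 to 5.84 in C57Bl6 (median 5.40). The C57Bl6 arrays overlapped with both lines. Its change was −0.76 ± 0.17 between the lines (adjusted p = 0.00288), the largest fall of that comparison, and −0.42 ± 0.17 against C57Bl6 (adjusted p = 0.0551). Taf10 and Taf12, both with histone folds, rose in alb-SREBP-1a against C57Bl6 (0.27 ± 0.08 and 0.29 ± 0.09) and were lower in alb-SREBP-1a∆P relative to alb-SREBP-1a (−0.26 ± 0.06 and −0.42 ± 0.11). The rises of Taf10 and Taf12 were lost in 12 and 10 of 16 fits that each left out 1 array (adjusted p up to 0.0733 and 0.0737). Both Taf10 calls were also absent on its other probe set, as described below.

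SL1, the TBP complex of RNA polymerase I, has its own TAF proteins. Taf1a ranged from 6.05 to 6.78 in alb-SREBP-1a∆P (median 6.59), from 6.84 to 7.49 in alb-SREBP-1a (median 7.19) and from 6.74 to 7.39 in C57Bl6 (median 7.05). The lines were separate, and 6 of 8 arrays of alb-SREBP-1a∆P lay below all C57Bl6 arrays. Taf1a changed by −0.68 ± 0.12 between the lines and by −0.55 ± 0.13 against C57Bl6. In contrast Taf1c was called higher in alb-SREBP-1a∆P relative to alb-SREBP-1a (0.29 ± 0.11, adjusted p = 0.0467), a call that was lost in 12 of 16 fits without 1 array. Gtf2i and Gtf2ird1, of the TFII-I family, fell against C57Bl6 (−0.36 ± 0.07 and −0.41 ± 0.12) and against alb-SREBP-1a (−0.36 ± 0.07 and −0.53 ± 0.11).

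The catalytic subunits of RNA polymerase I both fell. Polr1a and Polr1b, the largest and second largest, changed by −0.48 ± 0.08 and −0.56 ± 0.09 in alb-SREBP-1a∆P against C57Bl6 with no overlap of arrays, and by −0.26 ± 0.09 and −0.38 ± 0.09 against alb-SREBP-1a. Polr1c, which RNA polymerases I and III share, followed another course. It ranged from 7.47 to 8.16 in alb-SREBP-1a∆P (median 7.70) and from 7.52 to 8.10 in alb-SREBP-1a (median 7.87), against 8.14 to 8.56 in C57Bl6 (median 8.50). Both lines lay below C57Bl6 with 7 and 8 of 8 arrays under all C57Bl6 arrays and overlapped with each other. Polr1c changed by −0.67 ± 0.10 in alb-SREBP-1a∆P and by −0.55 ± 0.09 in alb-SREBP-1a, and the difference of −0.12 ± 0.10 between the lines was not called (adjusted p = 0.331).

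Of the 9 specific RNA polymerase III subunits, 7 were lower in alb-SREBP-1a∆P relative to C57Bl6 (median change −0.37) and 7 lower relative to alb-SREBP-1a (median −0.28). This is 77.8% of the group in each comparison, beside 25.9% and 28.4% of all genes. In brightness group 7, where the median level of these subunits lies, 44.5% and 48.4% of all genes were lower. The difference was not tested. The count against C57Bl6 includes Polr3e, whose probe sets differed, as described below. Of the calls against alb-SREBP-1a, those of Polr3b and Polr3k were each lost in 11 of 16 fits without 1 array, and that of Polr3d in 5. Against C57Bl6, the call of Polr3d was lost in 6 of 16 such fits and that of Polr3e in 2. Polr3f, part of the initiation subcomplex, changed most, by −0.64 ± 0.11 and −0.62 ± 0.12. The largest subunit Polr3a changed by −0.37 ± 0.06 and −0.26 ± 0.08. Each polymerase III takes up either POLR3G, known from stem and tumour cells, or its paralogue POLR3GL, the form of most differentiated tissues, and the genes of this pair were called in opposite directions in alb-SREBP-1a against C57Bl6.

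Polr3g ranged from 5.37 to 6.06 in alb-SREBP-1a∆P (median 5.61), from 5.62 to 6.15 in alb-SREBP-1a (median 5.96) and from 5.85 to 6.48 in C57Bl6 (median 6.25). Polr3gl ranged from 5.99 to 6.34 in alb-SREBP-1a∆P (median 6.09), from 6.11 to 6.67 in alb-SREBP-1a (median 6.55) and from 5.89 to 6.30 in C57Bl6 (median 6.18). For Polr3gl, 7 of 8 alb-SREBP-1a arrays lay above all C57Bl6 arrays, while alb-SREBP-1a∆P and C57Bl6 overlapped. In alb-SREBP-1a against C57Bl6, Polr3gl rose by 0.34 ± 0.08 (adjusted p = 0.0121) and Polr3g changed by −0.33 ± 0.10 at the edge of the threshold (adjusted p = 0.0498, lost in 12 of 16 fits without 1 array, up to 0.0961). In alb-SREBP-1a∆P against C57Bl6, Polr3g was lower (−0.58 ± 0.11) and Polr3gl differed by −0.02 ± 0.08 (adjusted p = 0.867). Between the lines Polr3gl was lower in alb-SREBP-1a∆P (−0.36 ± 0.09) and Polr3g was not called (−0.25 ± 0.11, adjusted p = 0.0701).

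Other pairs of a general subunit and a paralogue gave few calls. Taf4 and Taf7 and their paralogues Taf4b and Taf7l, known from germ cells, were not called in any comparison. Gtf2a1l, the germ cell paralogue of Gtf2a1, was called higher in alb-SREBP-1a∆P against C57Bl6 (0.19 ± 0.08, adjusted p = 0.0445) and alb-SREBP-1a (0.22 ± 0.08). These calls were lost in 13 and 9 of 16 fits that each left out 1 array (adjusted p up to 0.0857 and 0.07). Its mean was 5.10 ± 0.17 in alb-SREBP-1a∆P, 4.88 ± 0.12 in alb-SREBP-1a and 4.91 ± 0.07 in C57Bl6 (SD, n = 8 each), in a brightness group whose genes changed by a median of 0.23 and 0.26. The sign turned after quantile normalization (−0.06 and −0.02) and cyclic loess (−0.05 and −0.03). Taf5l, a SAGA subunit related to Taf5, fell in alb-SREBP-1a∆P (−0.28 ± 0.10 against C57Bl6, −0.32 ± 0.10 against alb-SREBP-1a), and Taf5, Taf6 and Taf6l were not called in any comparison.

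Some of these genes are read by a pair of probe sets, and the pairs bear on how far a value can be trusted. For Polr1d, Polr2c, Polr2h, Polr2l, Taf10 and Taf13 the brightest probe set stands, in the order of probe set numbers, among genes of another chromosome than the gene itself, and so does the single probe set of Taf9. For Polr2l the other probe set, placed among genes of its own chromosome, gave nearly the same changes, 0.64 ± 0.10 in alb-SREBP-1a∆P and 0.85 ± 0.09 in alb-SREBP-1a. For Polr2c, a core assembly subunit, the probe sets disagreed: −0.60 ± 0.09 on the brightest, but 0.42 ± 0.16 on the other (adjusted p = 0.0335), in alb-SREBP-1a∆P against C57Bl6. Taf13 gave −0.60 ± 0.14 and 0.20 ± 0.15, and Polr1d 0.02 ± 0.09 and −0.35 ± 0.13. Both Cdk7 probe sets lie among genes of their chromosome, yet their calls differed in each comparison. The brightest was called lower in alb-SREBP-1a∆P against both genotypes, while the other changed by −0.12 ± 0.12 against C57Bl6 and by 0.33 ± 0.13 against alb-SREBP-1a (adjusted p = 0.0517). In alb-SREBP-1a against C57Bl6 the other Cdk7 probe set was called lower (−0.46 ± 0.10, adjusted p = 0.00895) and the brightest changed by 0.06 ± 0.11. For Polr3e, a peripheral subunit, only the brightest was called in alb-SREBP-1a∆P against C57Bl6 (−0.26 ± 0.09, against −0.05 ± 0.12 on the other). Polr2h was not called on either, with 0.23 ± 0.10 and −0.06 ± 0.13. For Taf10 the calls were made on the brightest probe set only. The other changed by 0.27 ± 0.09 in alb-SREBP-1a against C57Bl6 (adjusted p = 0.0657, limma). Between the lines it changed by −0.14 ± 0.09 (adjusted p = 0.18, limma). Polr2c, Taf13, Polr1d, Cdk7 and Polr3e and the calls of Taf10 are therefore uncertain at the level of the gene. Taf1d has 9 probe sets, with changes from −0.71 to 0.26 in alb-SREBP-1a∆P against C57Bl6.

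**Figure D5:**
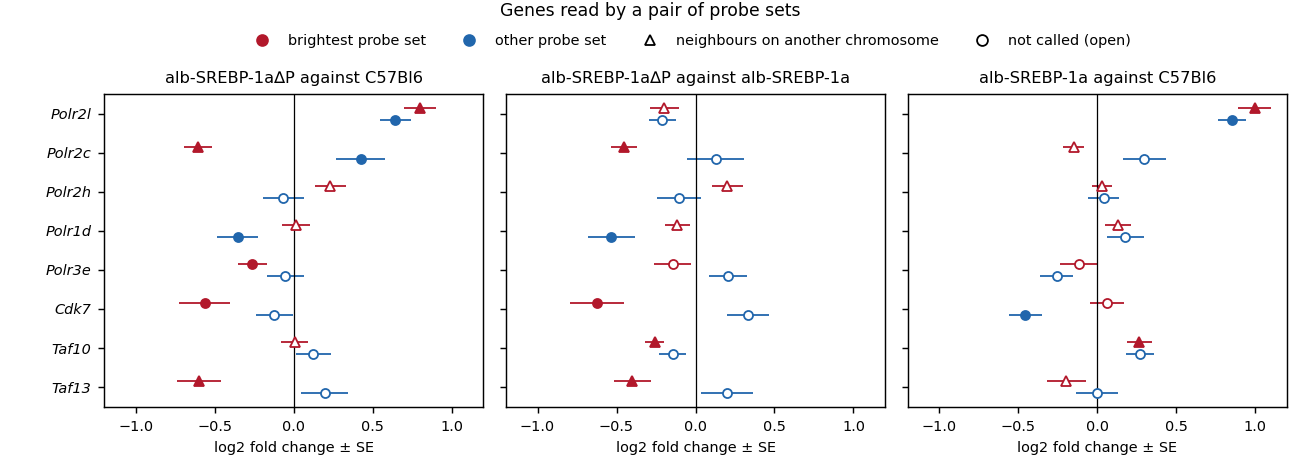
Log2 fold change ± standard error on each of the probe sets of 8 genes that have a pair; triangles mark probe sets whose neighbours in number order belong to another chromosome, and open symbols are not called. The Polr2l pair lies close together in each comparison, while Polr2c, Taf13 and Polr2h have opposite signs in both alb-SREBP-1a∆P comparisons, as do Cdk7 and Polr3e between the lines.

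Lists of genes that work beside this machinery held many lower genes in alb-SREBP-1a∆P. Against C57Bl6, 3 of 4 RNA polymerase I factors were lower, 8 of 16 RNA polymerase III factors, 17 of 26 elongation factors (2 higher), 10 of 18 polymerase assembly factors and tail-modifying enzymes (1 higher) and 6 of 8 mitochondrial transcription genes, with medians of −0.36, −0.23, −0.35, −0.29 and −0.46. Against alb-SREBP-1a it was 4, 12, 20, 11 and 6, and the other genes of these lists were not called. Together 61.1% and 73.6% of the 72 genes were lower in these comparisons, beside 25.9% and 28.4% of all genes. The lists had median levels of 6.73 to 7.36, in brightness groups 7 and 8, where 44.5% and 57% of all genes were lower against C57Bl6 and 48.4% and 65.8% against alb-SREBP-1a. The shares of the polymerase III factors (50%) and of the assembly and tail enzymes (55.6%) against C57Bl6 lay between these values. Against alb-SREBP-1a the share of the assembly and tail enzymes (61.1%) likewise lay between 48.4% and 65.8%. The differences were not tested. Supt16, a subunit of the histone chaperone FACT, fell to a mean of 6.81 in alb-SREBP-1a∆P, against 7.75 in C57Bl6 (−0.93 ± 0.11), and Cdc73 of the PAF1 complex to 7.00, against 7.71 (−0.71 ± 0.10). Gtf3c6, a TFIIIC subunit, changed by −0.85 ± 0.12, the tail-binding protein Rprd1a by −0.75 ± 0.11 and the polymerase I activator Ubtf by −0.37 ± 0.07. The mitochondrial transcription factors Tfam and Tfb2m changed by −1.03 ± 0.14 and −0.88 ± 0.11.

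In alb-SREBP-1a against C57Bl6 9 of the 72 genes of these lists were higher (12.5%) and 1 lower (1.39%), beside 6.26% and 4.4% of all genes. In brightness groups 7 and 8, 8.48% and 12.1% of all genes were higher and 4.97% and 5.92% lower. The share higher was thus near that of group 8, and the difference was not tested. Snapc5, of the complex that activates small nuclear RNA genes, averaged 6.78 in alb-SREBP-1a∆P, 7.47 in alb-SREBP-1a and 6.79 in C57Bl6. It rose in alb-SREBP-1a against C57Bl6 (0.68 ± 0.08, adjusted p = 2.71e-05), and the lines differed by −0.70 ± 0.08. Elob, the gene of elongin B, rose by 0.595 ± 0.13 in alb-SREBP-1a∆P and by 0.595 ± 0.11 in alb-SREBP-1a, each against C57Bl6. The tail phosphatase Ssu72 rose by 0.40 ± 0.09 and the elongation factor Tcea3 by 0.44 ± 0.09 in alb-SREBP-1a.

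Markers of the cell types in liver moved with the genotype in part. All 6 hepatocyte markers were bright, with array means of 13.37 to 13.54 in alb-SREBP-1a∆P, 13.39 to 13.64 in alb-SREBP-1a and 13.59 to 13.86 in C57Bl6, and 5 and 2 of them were lower in alb-SREBP-1a∆P and in alb-SREBP-1a, each against C57Bl6, beside 56.8% and 16.4% of all genes in the brightest group, to which these markers belong. Of 6 Kupffer cell and macrophage markers, 3 were higher in alb-SREBP-1a∆P and 3 in alb-SREBP-1a than in C57Bl6, beside 25.2% and 6.26% of all genes. In brightness group 9, where the median level of these markers lies, 6.27% and 14% of all genes were higher. Array means of these markers were 7.56 to 8.24, 7.57 to 8.31 and 7.29 to 7.82 in alb-SREBP-1a∆P, alb-SREBP-1a and C57Bl6. The markers of bile duct and of proliferating cells were not called in any comparison. Of the remaining 12 markers of lymphocytes, stellate and endothelial cells, 1 was higher and 1 lower in alb-SREBP-1a∆P relative to C57Bl6 (25.2% and 25.9% of all genes), and the endothelial marker Stab2 was higher in alb-SREBP-1a (0.21 ± 0.06). Between the lines the hepatocyte markers were not called. There 2 of 6 Kupffer cell markers, 2 of 4 endothelial markers and 1 of 4 lymphocyte markers were lower in alb-SREBP-1a∆P, and of 4 stellate cell markers 1 was higher and 1 lower, beside 28.4% of all genes lower and 22.2% higher. In brightness group 9, where the median levels of the Kupffer and stellate cell markers lie, 71.8% of all genes were lower and 1.2% higher. In group 8, that of the endothelial markers, 65.8% were lower, and in group 5, that of the lymphocyte markers, 10%. The differences were not tested. The part of these shifts in the changes of the transcription genes was not tested.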

How the data were processed

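Liver RNA of 24 male mice (150 ng per array) was hybridised to Affymetrix Mouse Gene 1.0 ST arrays, 8 per genotype. The authors normalized the arrays by robust multi-array averaging in Expression Console 1.1 and deposited log2 values, which ran from 0.833 to 15. Groups were taken from the sample labels. The genome build of the array annotation is not given in the sources used here. Of 35556 probe sets, 21789 carry 1 gene symbol, 1621 several and 12146 none. The number of arrays limits the precision. Mice of a genotype were litter mates, and no batch is given in the sources used here.

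Each pair of genotypes was fitted by itself with limma 3.58.1 (R 4.3.3), on all probe sets, with Benjamini-Hochberg adjustment and a threshold of 0.05. Tables and figures were made with Python 3.11.15, pandas 2.3.3 and matplotlib 3.10.9. The fits were tested on simulated data. The text names, per comparison, up to 10 members with the largest rise and 10 with the largest fall among those called, the 3 members of smallest p in each complex, the paralogue pairs, Gtf2a2, and up to 3 genes of smallest p in each accompanying list, with further members named for their role or their probe sets. The members and all lists were chosen with earlier results of these data known. Alternatives were other scalings, filters, variance models, probe set rules, the methods' t-test, a replicate block and leaving out arrays. Replicate numbers were not used as pairs in the main fits. The probe sets among neighbours of the gene's own chromosome (10 neighbours on each side) were an alternative chosen after seeing the data. Promoters came from RefSeq (GRCm38.p6).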

Additional observations from a re-analysis of the deposited data

Results flagged for a closer look

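Within a genotype, 13 of 213 sets of 8 arrays (6.1%) held an array that Dixon's test set apart from the others, where chance gives about 1 in 20. In each case it was the lowest array. Array 5 of alb-SREBP-1a accounted for 7 of them: Mnat1 at 5.03 (nearest 5.62), Polr1c at 7.52 (7.83), Polr2g at 6.87 (7.17), Polr3c at 7.3 (7.52), Polr3e at 5.83 (6.46), Taf3 at 6.42 (6.58) and Taf7 at 4.78 (5.19). Array 5 of C57Bl6 accounted for 3: Ercc2 at 6.52 (nearest 6.81), Polr3c at 7.2 (7.53) and Tbp at 7.08 (7.36). The other flags were in alb-SREBP-1a, namely Gtf2a1 at 8.02 on array 8 (nearest 8.24), Gtf2h4 at 7.16 on array 3 (7.45) and Taf4 at 6.98 on array 4 (7.31). Arrays 5 of alb-SREBP-1a and of C57Bl6 also had the lowest mean over the 71 genes in their genotypes, 6.83 and 6.87.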

How the results depend on the processing

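The falls in alb-SREBP-1a∆P depended on the processing mainly in number. Requiring an unadjusted p under 0.05 and a 1.5-fold change in the methods' t-test left 13 of 38 lower genes and 1 of 2 higher against C57Bl6, 8 of 43 lower and 0 of 2 higher against alb-SREBP-1a, and 1 of 6 higher and 0 of 5 lower in alb-SREBP-1a against C57Bl6. After Benjamini-Hochberg that t-test gave 1 gene higher in alb-SREBP-1a∆P relative to alb-SREBP-1a. Cyclic loess gave 7 higher against C57Bl6 and 24 lower against alb-SREBP-1a. Centring on the median gave 1 higher against C57Bl6, 0 higher against alb-SREBP-1a and 3 lower in alb-SREBP-1a against C57Bl6, where quantile normalization gave 9 and leaving out probe sets below the median level 9. That filter and a variance trend each gave 1 higher against alb-SREBP-1a, and the trend 1 higher against C57Bl6. Without alb-SREBP-1a arrays 1 and 2, 3 genes were higher and 3 lower in alb-SREBP-1a against C57Bl6 and 1 higher in alb-SREBP-1a∆P relative to alb-SREBP-1a. The causes were not tested.

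Replicate numbers were not used as pairs in the main fits. Correlations of same-numbered arrays ran from −0.116 to 0.279. Of 8 numbers, 3, 2 and 2 matched best with themselves in alb-SREBP-1a∆P against C57Bl6, in the comparison of the lines and in alb-SREBP-1a against C57Bl6. Whether arrays of the same number share a factor was not tested further. With the replicate block, 2 genes were higher and 40 lower in the first comparison, 1 and 43 in the second and 3 and 5 in the last. Leaving out 1 array at a time gave 1 to 3 higher and 35 to 41 lower, 0 to 2 higher and 39 to 48 lower, and 4 to 6 higher and 3 to 5 lower, in the same order. Single genes changed sign as follows. Gtf2a1l changed by −0.0554 and −0.0184 after quantile normalization and by −0.0494 and −0.0331 after cyclic loess, against C57Bl6 and alb-SREBP-1a. Against alb-SREBP-1a, Polr2a changed by 0.0142 and Taf9 by 0.0122 after cyclic loess. On the probe set among its own chromosome's genes, Polr1d changed by −0.35 against C57Bl6, Polr2c by 0.42 and 0.13 and Taf13 by 0.20 and 0.20 against C57Bl6 and alb-SREBP-1a. Taf1d changed by −0.43 against C57Bl6 as the mean over its probe sets.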
